A study of Mus musculus with 9 samples.

Results

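The genes described here encode the nuclear subunits of respiratory complex I and were chosen by symbol: every RefSeq transcript in the deposited table whose gene is called Ndufa, Ndufb, Ndufc, Ndufs, Ndufv or Ndufab followed by a number, without the Ndufaf assembly factors. The rule found 37 of 23798 genes, carried by 48 transcripts on 15 chromosomes. Of these, 11 are Ndufs or Ndufv genes and 26 are Ndufa, Ndufb, Ndufc or Ndufab genes. Symbols do not quite separate the core from the accessory subunits. Only 7 of the 11 Ndufs and Ndufv genes encode catalytic core subunits, among them Ndufs1, Ndufs3, Ndufs7, Ndufs8, Ndufv1 and Ndufv2, whereas Ndufs4, Ndufs5, Ndufs6 and Ndufv3 encode accessory ones. Ndufa4 was named as a complex I subunit and is now placed in complex IV. The mitochondrially encoded core subunits were not analysed here.

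Complex I of the mitochondrial respiratory chain oxidises NADH, passes the electrons through a flavin and a chain of iron-sulfur clusters to ubiquinone, and pumps protons across the inner membrane. It is L-shaped, with a matrix arm that holds the NADH-binding N module and the ubiquinone-binding Q module, and a membrane arm that pumps. Its catalytic core is conserved from bacteria and is encoded partly by mitochondrial DNA, while the accessory subunits surround that core and are needed for assembly and stability. In brain, where neurons draw on oxidative phosphorylation for most of their ATP, loss of single subunits such as Ndufs4 causes a Leigh-like encephalopathy in mice.

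The libraries came from mouse brain, labelled as oligodendrocytes, in 3 groups of 3: wild-type (WT) mice on placebo, mice of the genotype labelled TG on placebo, and TG mice on NM-101. The series title concerns neuron-derived alpha-synuclein and oligodendrocytes. The labels used here do not state the transgene, its promoter, the animals' age, or the nature or dose of NM-101. They also do not tie libraries to animals, and p-values therefore cover the spread between these libraries, which may be technical. WT columns hold counts, with library totals of 10612290, 14041951 and 11774367. TG columns hold log2 values read as log2(FPKM + 1), where FPKM is fragments scaled by transcript length and library total, and steps in their low values imply between 9130000 and 12910000 reads per library. Neuronal markers were as present as myelin markers under this label: in WT the 8 neuron markers summed to between 7022 and 7459 CPM, which is counts scaled by library total, and the 10 oligodendrocyte markers to between 5983 and 9740 CPM. In these bulk samples, fewer cells of a type and less RNA per cell cannot be told apart.

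Sequence around the transcription start of the genes is shown first, since the members are described as a set below. RefSeq promoter windows of GRCm38.p6, from 250 bases before to 50 after the transcription start, matched 33 of the 37 genes. An NRF1-like motif (GCGCA, any base, then GCGC) was searched on both strands, as were all motifs here. NRF1 regulates nuclear genes for respiratory chain proteins, and its motif stood in 7 of the 33 (21.2%), against 5.19% of the 27025 genes with a window. AANATGGC, a form of the YY1 site, stood in 12 of 33 (36.4%), against 6.96% of all genes. The remaining motifs were closer to their overall shares: CCGGAAG (ETS family) in 4 of 33 against 9.93%, AAGGTCA (ERR) in 3 against 5.38%, GGGCGG (GC box) in 15 against 38.2%, CCAAT in 10 against 41.1% and TATAAA in 4 against 15.7%. A match is a description of letters and not a shown binding site.

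Ndufb4, the member with the largest difference below, has 3 NRF1-like matches, in capitals, at positions -191, -79 and -22 from its start. The 250 bases before the start lie on the minus strand at chr16:37654369-37654618 and read, 5′ to 3′, as follows.
Ndufb4: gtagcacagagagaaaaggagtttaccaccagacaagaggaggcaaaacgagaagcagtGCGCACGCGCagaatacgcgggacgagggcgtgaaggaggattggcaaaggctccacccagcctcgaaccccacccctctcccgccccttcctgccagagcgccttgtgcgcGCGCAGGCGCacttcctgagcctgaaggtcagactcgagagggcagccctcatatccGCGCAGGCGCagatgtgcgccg
The other 6 members with the match are shown as 30 bases around a site, on the strand of the gene, with the match in capitals. The Ndufa6 site lies after the start, at position 24, and the other sites shown lie before it.
Ndufa5, chr6:24527697-24527726 (minus): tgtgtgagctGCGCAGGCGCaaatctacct
Ndufa6, chr15:82354249-82354278 (minus): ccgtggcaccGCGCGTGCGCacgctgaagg
Ndufa8, chr2:36049349-36049378 (minus): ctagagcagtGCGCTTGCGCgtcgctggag
Ndufa11, chr17:56717692-56717721 (plus): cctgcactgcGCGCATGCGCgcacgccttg
Ndufs5, chr4:123718265-123718294 (minus): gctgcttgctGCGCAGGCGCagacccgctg
Ndufs6, chr13:73328479-73328508 (minus): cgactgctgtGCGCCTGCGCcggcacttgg
These 7 genes include the highest and the lowest NM-101 difference given below, from Ndufb4 at 0.62 to Ndufs5 at -0.25 and Ndufa11 at -0.02.

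In 7 of its 12 genes the YY1-like match lay on the gene's own strand, 23 to 39 bases after the start, each time with the letters AAGATGGC. The match contains ATG, and whether that is the start codon was not examined. The 7 windows of 30 bases, with the match in capitals, are these.
Ndufa3, chr7:3617384-3617413 (plus): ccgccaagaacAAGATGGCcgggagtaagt
Ndufa9, chr6:126849097-126849126 (minus): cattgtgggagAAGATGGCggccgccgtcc
Ndufb8, chr19:44555393-44555422 (minus): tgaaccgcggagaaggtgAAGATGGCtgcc
Ndufc1, chr3:51408915-51408944 (minus): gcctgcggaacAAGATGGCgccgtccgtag
Ndufs4, chr13:114388045-114388074 (minus): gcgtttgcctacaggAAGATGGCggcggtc
Ndufs6, chr13:73328433-73328462 (minus): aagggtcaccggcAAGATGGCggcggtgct
Ndufs7, chr10:80249462-80249491 (plus): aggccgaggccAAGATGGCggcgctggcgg

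In WT brain all 37 genes were counted in every library, with between 135 and 4740 counts per gene. Together they took 48987, 68997 and 58412 counts, which is 0.462%, 0.491% and 0.496% of the library totals. The Wilson 95% intervals of these shares were 0.458% to 0.466% for replicate 1 and 0.488% to 0.495% for replicate 2, and cover counting error only. Replicate 1 was therefore the lowest, by more than its counting error. Most genes varied little between the 3 libraries: the coefficient of variation of CPM had a median of 5.93% over the members, from 1.36% for Ndufa10 to 32.4% for Ndufs5.

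Ndufa4 had the most counts of the members in WT replicates 1 and 3, at 3566, 4626 and 4205 (341 ± 14.5 CPM, SD, n = 3). Ndufb9, a LYR-motif subunit of the distal membrane arm, followed with 2992, 4740 and 4125 counts (323 ± 36.4 CPM). The spreads of these genes overlap, so their order in CPM is not resolved. Ndufs5, an accessory subunit of the proximal membrane arm, was the lowest, with 241, 256 and 135 counts (17.5 ± 5.66 CPM), and its lowest library was replicate 3. Ndufs5 has a transcribed pseudogene in RefSeq, Ndufs5-ps, which was counted 22, 27 and 25 times, so reads of the gene may be split. Next lowest was Ndufab1, the mitochondrial acyl carrier protein that also serves lipoic acid synthesis, with 593, 817 and 739 counts (58.9 ± 3.50 CPM). Reads are likewise uncertain for Ndufb4, Ndufa12, Ndufa11, Ndufs6 and Ndufab1, which have named near copies in RefSeq that were not analysed here, and for the 10 members that overlap another RefSeq gene if strand was not used in counting, which the sources do not say.

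**Figure D1:**
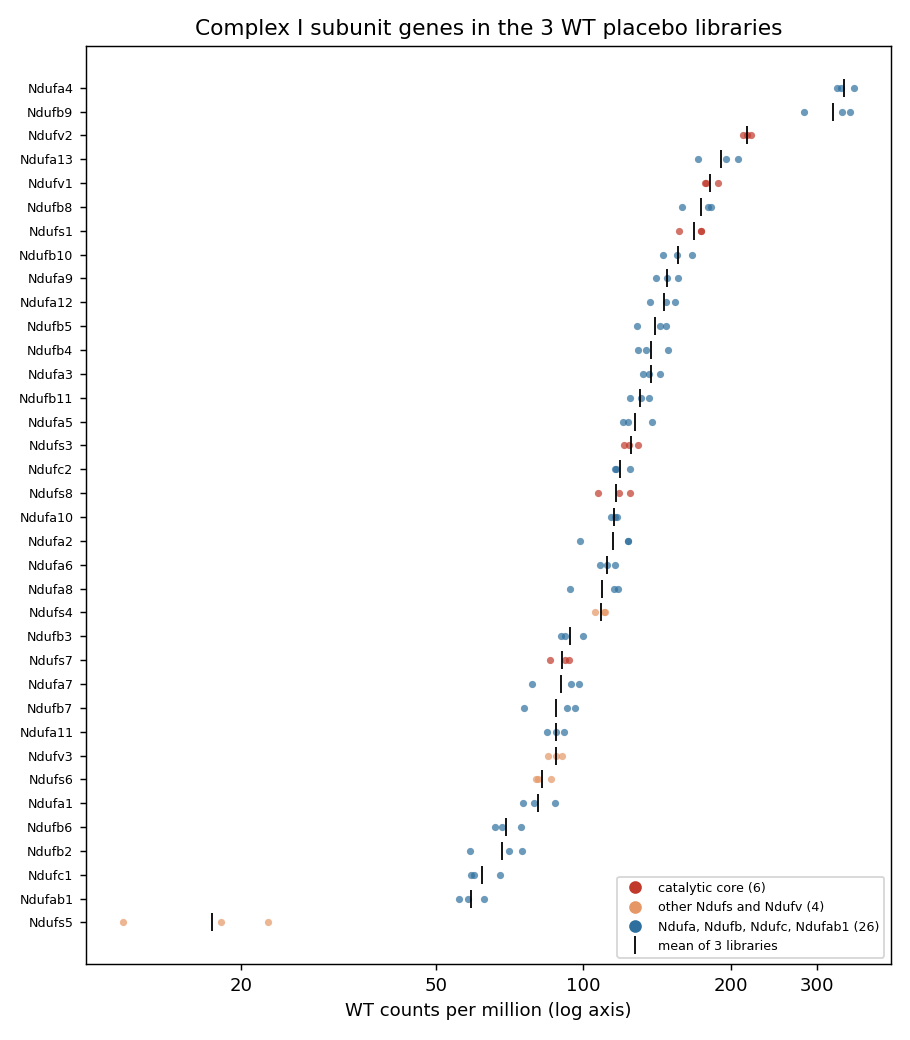
CPM (log axis) of 36 complex I subunit genes in the 3 WT placebo libraries; points are libraries and the vertical tick is their mean. Most genes sit between 58.9 and 341 CPM with their libraries close together, and Ndufs5 lies apart at 17.5 CPM.

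The catalytic core genes were well represented in WT. Ndufv2, which carries an iron-sulfur cluster beside the flavin, had 2254, 3038 and 2586 counts. Ndufv1, which holds the flavin and the NADH site, had 1889, 2652 and 2087. Ndufs1, the largest subunit and carrier of several iron-sulfur clusters, had 1850, 2440 and 1847. The N module core genes were thus all above the member median, which was 117 CPM. Of the Q module core genes, Ndufs3 had 1376, 1703 and 1460, and Ndufs8, a ferredoxin-like subunit, had 1139, 1751 and 1396. Ndufs7, which carries the last cluster before ubiquinone, had the fewest of the core genes described, with 909, 1289 and 1101 counts.

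The Ndufs and Ndufv genes were compared with the others per transcript length, within each group and without a test. This split by symbol is not that of core and accessory subunits, since 4 of the 11 encode accessory ones. In WT, with GENCODE lengths, the median log2(RPKM + 1) of the 11 Ndufs and Ndufv genes minus that of the 26 others was -0.21, -0.42 and -0.42 in the 3 libraries, where RPKM is reads scaled by transcript length and library total. In the deposited TG values the same difference of levels, on the log2(FPKM + 1) scale, was -0.75, -0.64 and -0.83 under placebo and -0.78, -0.90 and -0.93 under NM-101. Per length, the Ndufs and Ndufv genes lay lower in all 9 libraries. The labels' protocols name libraries that read transcripts from the 3′ end, so counts need not scale with transcript length. The part of the division by length in this difference was not tested. The sets also differ in length: the median GENCODE length was 1046 bases for the Ndufs and Ndufv genes and 682 for the others. Without division by length the mean WT difference was -0.057, with medians of 117 CPM in both sets. This WT difference did not have the same sign in every library. In the TG groups, with FPKM multiplied back by GENCODE length, the difference was -0.35 under placebo and -0.35 under NM-101. That was smaller than with division by length and still below 0. The lengths implied by WT CPM and TG FPKM, described below, had medians of 917 bases for the Ndufs and Ndufv genes and 489 for the others. Implied lengths are computed from these same WT and TG values, so they give no separate check of the -0.35. Its source was not tested. For the 7 catalytic core genes alone, the median WT level was 168 CPM, against 114 CPM for the 30 other members. Per length the core genes were lower in WT, with medians of 6.97, 6.93 and 6.96 in the 3 libraries. Those of the 30 others were 7.13, 7.29 and 7.36 on the log2(RPKM + 1) scale.

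Highest per length in WT were Ndufa4, Ndufb9 and Ndufa3, at 9.13, 8.84 and 8.06 on the log2(RPKM + 1) scale. The same 3 genes were highest in the deposited TG placebo values, in the order Ndufa4 (9.68 ± 0.12), Ndufa3 (9.46 ± 0.17) and Ndufb9 (8.98 ± 0.05; SD, n = 3, log2(FPKM + 1)). Ndufa4 was above Ndufa3 in each TG placebo library, at 9.773 against 9.275, 9.538 against 9.485 and 9.727 against 9.615. Their order was not tested. Lowest per length in WT were Ndufab1 (4.16), Ndufs5 (5.05) and Ndufa10 (5.87). The lowest in TG placebo were Ndufa11 (4.95 ± 0.19), Ndufs1 (5.68 ± 0.08) and Ndufs4 (5.71 ± 0.14). These orders depend on the lengths used. The ratio of WT CPM to the mean FPKM of the 6 TG libraries, NM-101 included, was taken as an implied length. It is a length only if a gene's level is alike in the groups, which was not tested. This implied length was within 1.5 times of the GENCODE length for 24 members. For 12 members the implied length was shorter by more than that, and for Ndufa11 it was longer, at 2948 against 545 bases. For Ndufab1 the implied length was 711 bases against 3479 in GENCODE.

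This mismatch limits the comparison of TG placebo with WT, which concerns the effect of the genotype. Rebuilt WT levels and deposited TG placebo levels differed by -2.39 to 2.09 on log2 scales over the members, with a median of 0.16. For 833 other tested genes of at least 300 and under 1000 bases the median gap was 0.12, and for 7700 genes of at least 1000 and under 4000 bases it was 0.03. The columns were normalized separately, and a genotype difference and the difference in processing cannot be told apart for any member.

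For genes with several transcripts in the table, 1 transcript dominated in most. The main transcript of Ndufs8 held 91.1 ± 1.40% of WT counts, that of Ndufs6 92.1 ± 1.02%, that of Ndufa7 93.3 ± 2.98% and that of Ndufv2 99.9 ± 0.13% (SD, n = 3). Ndufv3, an accessory N module subunit with a short and a long form, was mostly short in WT: the long transcript (1582 bases in GENCODE) held 17.9 ± 3.24% of counts. In the TG groups the long transcript held 6.43 ± 0.40% of FPKM under placebo and 6.16 ± 0.44% under NM-101. FPKM is divided by length and counts are not, so the WT share is on another scale. Ndufs1 was split further, with its main transcript at 72.7 ± 5.00% of WT counts. Another Ndufs1 transcript was counted 0, 56 and 0 times in the WT libraries. The protocols name libraries that read transcripts from the 3′ end, so transcripts that share this end may not be told apart. The part of read assignment in these shares was not tested.

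NM-101 was set against placebo within TG mice, which addresses the response to the agent on that background. All 37 members passed the filter on low values, and 35 of them had a higher mean under NM-101, against 55.5% of the 12699 genes tested. The median log2 difference was 0.23 over the members and 0.03 over all genes tested. No member passed the threshold in limma after Benjamini-Hochberg adjustment over all genes: 0 of 37 were called higher, where 0.102% of all genes were, and 0 lower, where 0.0315% were. At an unadjusted p under 0.05, 19 members were higher, against 10.7% of all genes, and 0 lower, against 4.17%. The groups did not overlap, with every NM-101 library above every placebo library, for 18 members, against 13.6% of all genes, and 0 lay apart in the other direction, against 5.98%.

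The members did not vary independently, since they came from the same 6 libraries. Set against the TG placebo mean of each gene, the median over the 37 members was 0.08, -0.09 and 0.01 in the placebo libraries and 0.11, 0.39 and 0.27 in the NM-101 libraries, on the log2(FPKM + 1) scale. NM-101 replicate 2 was the highest library for 30 members, and TG placebo replicate 2 the lowest for 24. NM-101 replicate 1 and TG placebo replicate 1 were close by these medians, at 0.109 against 0.084. Over all genes tested the library medians lay between -0.004 and 0.04.

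**Figure D2:**
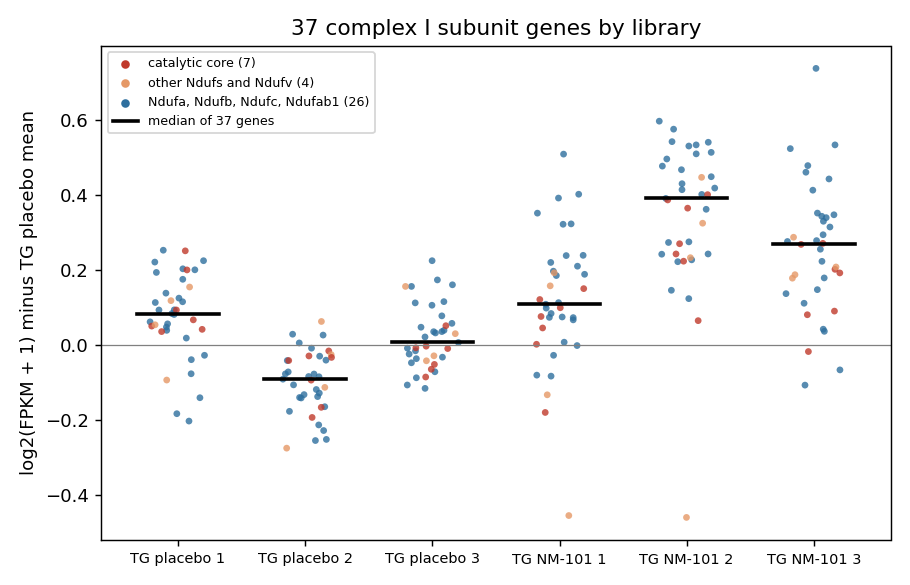
Level of each of the 37 genes in the 6 TG libraries, as log2(FPKM + 1) minus the gene's TG placebo mean; points are genes and the bar is their median. NM-101 replicates 2 and 3 have medians of 0.39 and 0.27, whereas NM-101 replicate 1, at 0.11, is close to TG placebo replicate 1, at 0.08.

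The largest differences were in accessory subunits, and these are given on the log2(FPKM + 1) scale. Ndufb4, of the distal membrane arm, was at 8.41, 8.64 and 8.79 in the placebo libraries and at 9.12, 9.21 and 9.35 in the NM-101 libraries. The groups do not overlap, and the difference was 0.62 with a standard error of 0.116 (1.53-fold, limma adjusted p = 0.0855). Ndufb8, a distal arm subunit often used as a marker of assembled complex I, was at 8.22, 8.11 and 8.22 and then at 8.54, 8.73 and 8.66. It too separated the groups, by 0.46 (SE 0.0893, limma adjusted p = 0.0881). Ndufa7, of the N module, was at 7.75, 7.57 and 7.67 under placebo and 8.07, 8.20 and 8.02 under NM-101, a difference of 0.43.

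Ndufa4, the subunit reassigned to complex IV, was at 9.773, 9.538 and 9.727 and then at 10.002, 10.221 and 10.214, a difference of 0.47 with a 95% interval of 0.23 to 0.70. Ndufc2, of the proximal membrane arm, was at 7.79, 7.49 and 7.57 under placebo and at 7.94, 8.19 and 8.14 under NM-101. Ndufa12, an N module subunit added late in assembly, was at 8.22, 7.88 and 8.22 and then at 8.50, 8.62 and 8.55. These 3 genes also had every NM-101 library above every placebo library. Their limma adjusted p was between 0.108 for Ndufa4 and 0.134 for Ndufa12.

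The catalytic core genes differed by less. For Ndufv1 the placebo libraries stood at 6.92, 6.85 and 6.88 and the NM-101 libraries at 6.70, 7.10 and 6.96. The groups overlap, and the difference was 0.04 (95% interval -0.21 to 0.30). Ndufs1 was at 5.77, 5.65 and 5.61 and then at 5.68, 5.74 and 5.77, a difference of 0.05 (-0.15 to 0.25). Ndufv2 was at 7.02, 6.61 and 6.69 and then at 6.90, 7.18 and 7.04, where placebo replicate 1 lies above the lowest NM-101 library. In the N module core, then, no gene separated the groups.

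In the Q module core, Ndufs3 was at 7.05, 6.96 and 6.99 under placebo and at 7.10, 7.27 and 7.20 under NM-101. Ndufs8 was at 7.18, 7.05 and 7.19 and then at 7.29, 7.53 and 7.41. Both separated the groups by narrow gaps, with differences of 0.19 and 0.27 and limma adjusted p-values of 0.350 and 0.257. Ndufs7 overlapped, at 7.26, 6.87 and 7.06 against 7.11, 7.43 and 7.05.

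Ndufab1 was at 6.456, 6.120 and 6.181 under placebo and at 6.463, 6.480 and 6.583 under NM-101, a difference of 0.26 whose 95% interval ran from 0.01 to 0.50. Ndufb9 was at 9.03, 8.93 and 8.96 and then at 9.16, 9.49 and 9.44. Ndufa3, of the proximal membrane arm, was at 9.28, 9.48 and 9.62 and then at 9.70, 9.99 and 9.75. All 3 separated the groups without passing the adjusted threshold. Ndufa10, at 6.96, 6.57 and 6.59 and then 6.79, 6.85 and 6.84, did not. Ndufs5 and Ndufa11 were the members with a lower mean under NM-101: Ndufs5 stood at 5.93, 5.54 and 5.97 and then at 5.36, 5.35 and 5.99, with overlapping groups and a 95% interval of -0.70 to 0.20, and Ndufa11 differed by -0.02 (-0.30 to 0.25).

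**Figure D3:**
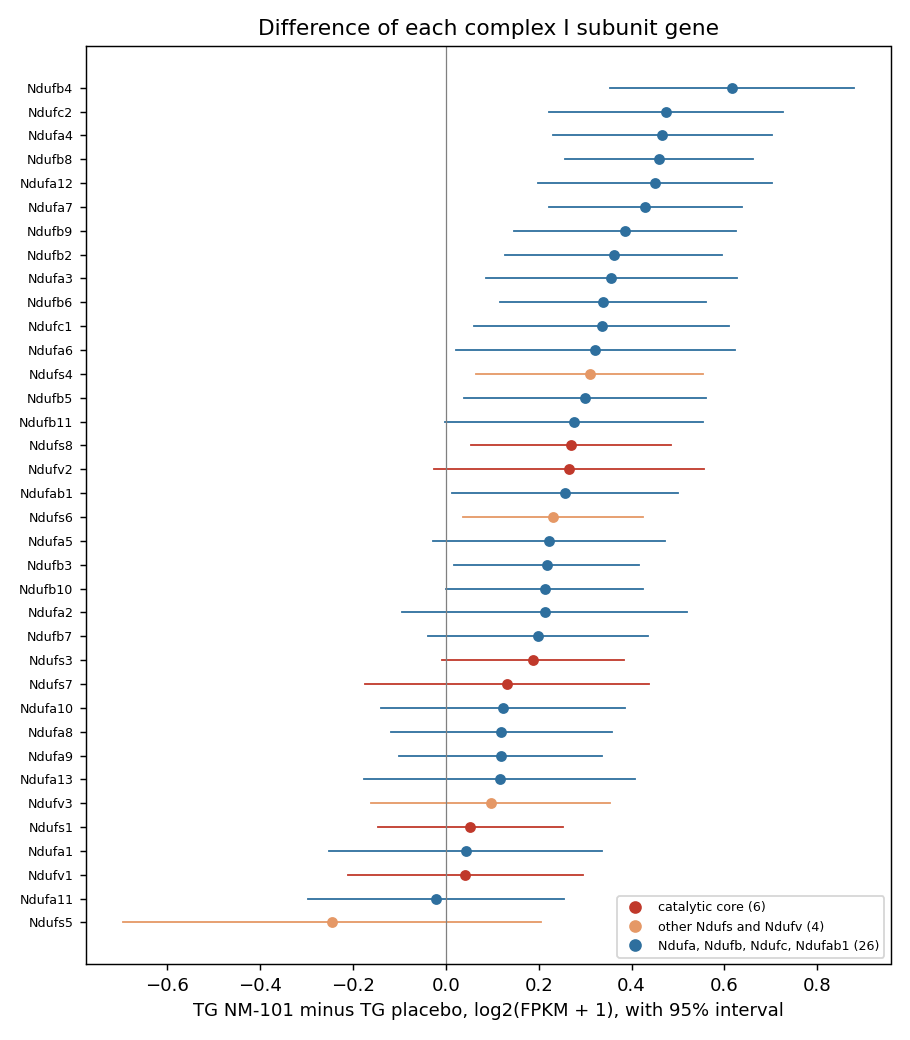
Difference between TG NM-101 and TG placebo for 36 genes on the log2(FPKM + 1) scale, with the unadjusted 95% interval of the limma fit; colours mark the catalytic core, the other Ndufs and Ndufv genes, and the remaining subunits. Ndufb4 is highest at 0.62, the 6 core genes drawn lie between 0.04 and 0.27, and Ndufs5 is lowest at -0.25.

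By named set, 10 of 11 Ndufs and Ndufv genes and 25 of 26 others were higher, with median differences of 0.17 and 0.29. The 7 catalytic core genes had a median of 0.17, and the 4 accessory Ndufs and Ndufv genes one of 0.16. By place in the complex, the 10 distal membrane arm genes had a median difference of 0.32 and all were higher, with 7 separating the groups. The 10 N module genes had a median of 0.25 (4 separating), the 6 Q module genes 0.18 (3 separating) and the 9 proximal membrane arm genes 0.12 (2 separating, 7 higher). Over all genes tested 13.6% separated the groups in this direction, and among other genes of at least 500 and under 750 bases 31.3% did, so the proximal arm count lies near these shares. No test was made between these sets, whose members share their libraries.

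Transcript length was compared because the members are short, with a median GENCODE length of 732 bases against 2953 for all genes tested. Among other genes of at least 500 and under 750 bases, the median difference was 0.21 and 80.5% were higher, and 31.3% had every NM-101 library above every placebo library. The 15 members of that length had a median of 0.34, with 13 higher. From 750 to under 1000 bases the medians were 0.15 for 455 other genes and 0.22 for 7 members, and from 1000 to under 2000 bases 0.04 for 2644 others and 0.18 for 8 members. Under 500 bases the order turned, at 0.34 for 103 others and 0.22 for 4 members. Across genes, Spearman rho between difference and GENCODE length was -0.18 over the 37 members and -0.067 over 12533 tested genes, which share the same 6 libraries. With the implied length in place of the GENCODE length it was -0.41 over the 37 members. The implied length is computed partly from the same TG values, so the measures are not independent. When the median deviation of genes of like length was taken out of each library, an alternative chosen after seeing the data, the median over the members was 0.091 and 26 of 37 were higher, against 49.2% of all genes. At an unadjusted p under 0.05 in that fit, 8 members were higher, against 7.97% of all genes, and 2 were lower, against 6.50%, and 0 were called after adjustment. The median for the distal membrane arm was then 0.13, for the N module 0.059, for the Q module 0.070 and for the proximal membrane arm 0.042, so the N and Q modules changed order. The catalytic core was at 0.040, and the 4 accessory Ndufs and Ndufv genes turned to -0.081, with 1 of 4 higher.

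**Figure D4:**
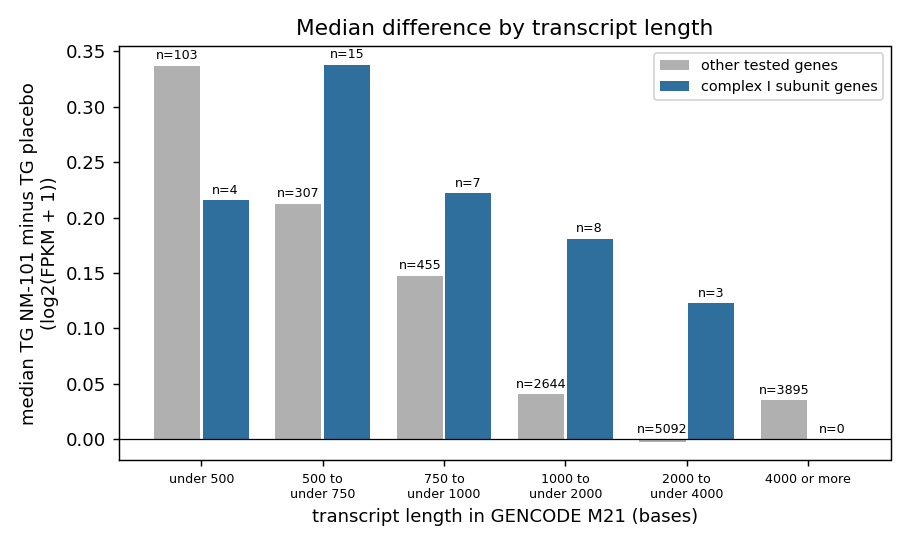
Median difference between TG NM-101 and TG placebo on the log2(FPKM + 1) scale by transcript length in bases, for complex I subunit genes and for all other tested genes, with the number of genes above each bar. Other short genes were higher as well, at 0.34 under 500 bases and 0.21 from 500 to under 750, and at -0.002 from 2000 to under 4000.

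A single library decided the number of calls. Without TG placebo replicate 1, limma called 14 of 37 members higher after adjustment, against 9.60% of all genes, and the median over the members was 0.26. Of the 14, 12 were Ndufa, Ndufb, Ndufc or Ndufab genes, and Ndufs4 and Ndufv2 were the others. Ndufc2 then had the smallest adjusted p, 0.00690, at a difference of 0.56. Replicate 1 stood apart from the other placebo libraries in genes outside complex I. Against the TG placebo mean, the median of 10 oligodendrocyte markers was 0.97 in replicate 1 and -0.43 and -0.51 in replicates 2 and 3, and that of the 4 nuclear-retained RNAs tested was -2.26, 1.04 and 1.22. For 4 ependymal and choroid plexus markers it was 2.61, -1.23 and -1.38. The part of these differences in the calls was not tested.

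Markers of other cells and nuclear-retained RNAs were compared in the same way. Their counts stand beside 55.5% of all genes tested that were higher, 0.102% called higher and 0.0315% called lower. The 7 astrocyte markers were all higher under NM-101 (0 called, median 0.38), and their summed FPKM ran from 1142 to 1289 under placebo and from 1614 to 1723 under NM-101. The 7 microglia markers were all higher as well (0 called, median 0.37), with sums of 225 to 247 and 302 to 304. The 8 neuron markers had a median of 0.01 with 5 higher, and sums of 2381 to 2812 and 2386 to 2636, which overlap. Of 7 endothelial and mural markers 0 were higher (median -0.26), and of 4 oligodendrocyte precursor markers 1 was (median -0.31), with 0 called in limma. The 10 oligodendrocyte markers had a median of 0.15 with 8 higher and 0 called. The 4 nuclear-retained RNAs were all lower (0 called, median -1.22), and their medians against the TG placebo mean were -0.81, -1.36 and -1.53 in the NM-101 libraries. Of these Neat1, at 4.02, 4.62 and 5.02 under placebo and 4.00, 3.26 and 3.19 under NM-101, did not overlap between the groups, by a narrow gap (difference -1.07, limma adjusted p = 0.212). No marker in these lists was at 0 in all TG libraries. The part of these cells and RNAs in the complex I differences was not tested.

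Genes that act with complex I showed the following. Of 20 listed assembly factors 19 were tested, and 0 were called in limma in either direction, against 0.134% of all genes. Of the 19, 13 were higher, against 55.5% of all genes, and the median difference was 0.12. Tmem126a, an inner membrane assembly factor, was at 5.02, 4.70 and 4.96 under placebo and at 5.45, 5.38 and 5.37 under NM-101, a difference of 0.50 (limma adjusted p = 0.103). Ndufaf2 differed by 0.36 and Ndufaf3 by 0.22, and Ndufaf2 did not separate the groups. At an unadjusted p under 0.05, Ndufaf1 was the only other one of the 19. Of all genes tested 10.7% were higher and 4.17% lower at that threshold.

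The other respiratory complexes were also higher on balance. For comparison, 55.5% of all genes tested were higher, 0.102% were called higher and 0.0315% lower. Among other genes of at least 500 and under 750 bases 80.5% were higher. All 4 complex II genes were higher, with a median of 0.13, as were all 9 nuclear complex III genes (0.19) and all 10 nuclear complex IV genes (0.30), with 0 called in limma. Of 16 ATP synthase genes 14 were higher, with a median of 0.27 and 1 call, Atp5mpl (0.69, limma adjusted p = 0.0486). Citrate cycle genes had a median of 0.09 (9 of 12 higher, 0 called), and regulators of mitochondrial biogenesis one of 0.04 (6 of 11 higher, 0 called). The count for the regulators lies near the share of all genes. With length taken out as above, the medians were 0.11 for complex II, 0.066 for complex III, 0.081 for complex IV and 0.11 for ATP synthase.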

How the data were processed

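Data from 9 libraries in 3 groups of 3 were used. The labels' protocols name an FFPE RNA extraction kit and QuantSeq libraries, which read transcripts from the 3′ end. Alignment used Bowtie2 and the build mm10, per the submitters' processing notes; no counting program or annotation is named in those notes. A table of 33299 RefSeq transcripts was deposited. Its WT columns hold deposited counts. Its TG columns hold deposited log2 values, read here from the values alone as log2(FPKM + 1), since over 13583 transcripts they tracked log2 WT CPM with a slope of 0.97 and log2 transcript length with a slope of -0.87.

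Symbols came from RefSeq for GRCm38.p6, which named 32394 transcripts. TG values were returned to a linear scale, summed per gene and written again as log2(value + 1). Genes with a mean of at least 1 over the 6 TG libraries were tested with limma 3.58.1 in R 4.3.3 (variance trend, robust shrinkage, two-sided, Benjamini-Hochberg adjustment over all 12699 genes, threshold 0.05). The fit was tested on simulated data with independent noise per gene and library. That simulation holds no shift shared by many genes of a library, so it does not cover such shifts here. WT counts were turned into library-scaled counts (CPM) and, with GENCODE M21 transcript lengths, into RPKM. WT and TG columns were normalized separately and were not tested against each other. TG depth was read from steps of low values (tolerance 0.2 of a whole read). Alternatives were another pseudocount, filter, scaling, transcript choice and variance model, a replicate block, leaving out each library, and, chosen after seeing the data, centring by transcript length.

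The members, gene lists, tests and motifs were chosen with earlier results of these data known. Members given with every library's value follow a rule: the catalytic core subunits except 1 that is not reported here by itself, Ndufa4, Ndufab1, the 6 smallest limma p-values, and the 3 highest and 3 lowest WT levels per length. Of the assembly factors, the 3 with the smallest p are named. Other members, and the called gene Atp5mpl, were named after their values were seen.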

Additional observations from a re-analysis of the deposited data

How the results depend on the processing

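The number of genes called among all tested was 17. It was 4 with no filter on low values, 0 with genes above 0 in all 6 libraries (1894 at an unadjusted p under 0.05 in limma), 4 with median-ratio scaling, 7 with the highest transcript only, 4 without trend and robust shrinkage, 3 with length-bin centring, and between 2 and 2262 when 1 library was left out. For complex I members the count of calls was 0 throughout, except 14 without TG placebo replicate 1, so the leave-one-out range was 0 to 14; unadjusted counts ran from 9 to 24 in these fits. The median over the members ran from 0.19 to 0.29 when 1 library was left out and was 0.091 with length-bin centring, where it was 0.029 for Ndufs and Ndufv genes and 0.10 for the others. With the replicate number as a block, 3 genes and 0 members were called. Deviations of same-numbered libraries from their group means correlated weakly (r = 0.04, -0.03 and -0.02). Replicate 1 correlated best with its own number, and replicates 2 and 3 did not. These few values cannot show whether same-numbered libraries share more than a number. The level difference between Ndufs and Ndufv genes and the others, without length scaling, was -0.057 in WT, -0.35 in TG placebo and -0.35 in TG NM-101. The TG values rest on GENCODE lengths, which do not match the implied lengths for all members.

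Over 14 alternatives for each of 37 members, 501 of 518 differences kept the sign of the reported value. Ndufs1 was at -0.015 with the highest transcript only. With length-bin centring Ndufa1 was at -0.20, Ndufa2 at -0.032, Ndufa8 at -0.12, Ndufb10 at -0.031, Ndufb3 at -0.027, Ndufb7 at -0.046, Ndufs6 at -0.014, Ndufs7 at -0.11 and Ndufv3 at -0.15. When 1 library was left out Ndufa11 ran from -0.11 to 0.079, Ndufa1 from -0.064 to 0.15, Ndufa13 from -0.022 to 0.21 and Ndufv1 from -0.050 to 0.15. The cause of these changes was not tested. TG depth was read only from steps, so no counting error is given for single TG values.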
